A study of Homo sapiens with 6 samples.

Results

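The genes of cholesterol synthesis, uptake and sterol sensing were followed in cells given an inhibitor of the kinase TBK1. The set held 29 genes, listed by name for their known place in the pathway at a time when earlier results of these data were known. A probe with that gene name was found for 28 of them, on 38 of the 47321 probes of the array, and 33 of these probes were bright enough to be tested. They measured 27 genes of 11582 tested in all. NPC1L1, a sterol transporter of intestine and liver, was not detected on any array, and FDFT1 was not analysed here. The samples are labelled HCC1954, a breast cancer line known for extra copies of ERBB2, which encodes HER2. One group was given the compound TBK1 inhibitor II for 3 days (n = 3), and the other was given vehicle for the same 3 days (n = 3). The study asked how cells labelled as this HER2-positive line respond to the compound. The labels do not say whether the replicates were separate cultures, so the spread behind every p-value may be technical.

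Cells match cholesterol supply to need through SREBP transcription factors, which are made as membrane proteins of the endoplasmic reticulum. The escort protein SCAP carries them to the Golgi for cleavage when sterols are scarce, and INSIG proteins hold SCAP back when sterols are plentiful. The cleaved factors switch on genes of the mevalonate pathway, which builds isoprenoid units from acetyl-CoA, of the sterol steps that follow squalene, and of lipoprotein uptake. In breast cancer cells this pathway is known as a source of membrane cholesterol and of the lipid anchors of small GTPases.

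The median signal was 110.7, 117.3 and 130.7 on the inhibitor arrays and 98.5, 101.7 and 138.1 on the vehicle arrays. Detected probes numbered 19676 to 20741 on inhibitor arrays and 18325 to 20127 on vehicle arrays. Correlations of normalized levels were 0.988 to 0.991 within the inhibitor group, 0.975 to 0.985 within the vehicle group and 0.968 to 0.981 between the groups. Markers that go with the label were mostly low or not detected, and whether the line is as labelled was not tested. Of 6 genes of the ERBB2 amplicon, 5 were detected on all 6 arrays and GRB7 on 0. Their signals were low: the median over the 6 arrays was 405.3 for ERBB2, 267.6 for STARD3, 180.2 for PGAP3, 171.4 for ORMDL3 and 164.2 for MIEN1. Of 14 luminal epithelial markers 4 were detected on all 6 arrays and 6, KRT7 and KRT19 among them, on 0. Of 5 basal epithelial markers 0 were detected on all 6 arrays, and 4 were detected on 0. Among 7 mesenchymal and neural genes, VIM, CDH2, NEFM and NEFL were detected on all 6, with median signals of 5667, 1407, 2003 and 219.9. The rest of these 7 were mostly dark: ZEB1 and SPARC were detected on 0 arrays and FN1 on 1. Markers of cell types with a sterol metabolism of their own were mostly dark: of 6 steroidogenic and hepatic markers, STAR, CYP17A1, CYP7A1 and APOA2 were detected on 0 arrays. ALB, from that list, rose with the inhibitor (log2 fold change 0.97, adjusted p = 0.0467), as did DCN among 4 tested fibroblast markers (log2 fold change 1.29, adjusted p = 0.0198). Their part in the results below was not tested. In bulk samples, fewer cells of a type and less RNA per cell cannot be told apart.

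Of the 27 measured genes, 3 rose with TBK1 inhibitor II and 0 fell (limma, adjusted p under 0.05). They were INSIG1, the sterol-sensing brake on SREBP activation, TM7SF2, a sterol reductase of the late synthesis steps, and NPC1, the lysosomal membrane protein that exports cholesterol taken up with lipoproteins. Their folds were 2.09, 1.98 and 1.74. The remaining 24 genes did not pass the test, among them SREBF2, which encodes SREBP-2, the main factor of cholesterol genes. Across all genes 3.59% passed as higher (416 genes) and 1.86% as lower (215 genes), against 11.1% of the 27 as higher. Higher calls made up 65.9% of all calls, and 94.9% when arrays were centred on their medians instead of quantile normalized. That centring moved the median log2 fold change of all genes to 0.24, from 0.03, and that of the 27 genes to 0.44, from 0.26.

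The promoters of the genes that rose are shown because SREBPs are known to act beside NF-Y and Sp1, with that of SREBF2, which held the set's only match to the sterol regulatory element core searched. Each is the sense strand from 250 bases before to 50 bases after the annotated start in RefSeq assembly GRCh38.p14. Capitals mark TCACNCCAC (the core of the sterol regulatory element, N any base), CCAAT (the NF-Y motif) and GGGCGG (the Sp1 motif), each on either strand, so that CCAAT also appears as ATTGG and GGGCGG as CCGCCC. Neighbouring Sp1 matches can overlap and then run together.
INSIG1: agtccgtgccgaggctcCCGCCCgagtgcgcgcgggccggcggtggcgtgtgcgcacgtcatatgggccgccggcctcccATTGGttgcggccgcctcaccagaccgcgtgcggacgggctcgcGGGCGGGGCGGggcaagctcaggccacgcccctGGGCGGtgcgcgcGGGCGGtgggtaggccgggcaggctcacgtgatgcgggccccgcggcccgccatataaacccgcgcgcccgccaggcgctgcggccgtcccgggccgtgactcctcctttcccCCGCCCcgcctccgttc
TM7SF2: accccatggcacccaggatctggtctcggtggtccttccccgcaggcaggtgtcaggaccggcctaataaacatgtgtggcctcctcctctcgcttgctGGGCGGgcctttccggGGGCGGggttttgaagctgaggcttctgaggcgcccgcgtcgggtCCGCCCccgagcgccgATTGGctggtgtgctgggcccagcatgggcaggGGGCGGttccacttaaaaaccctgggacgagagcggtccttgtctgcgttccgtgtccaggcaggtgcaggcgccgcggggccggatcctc
NPC1: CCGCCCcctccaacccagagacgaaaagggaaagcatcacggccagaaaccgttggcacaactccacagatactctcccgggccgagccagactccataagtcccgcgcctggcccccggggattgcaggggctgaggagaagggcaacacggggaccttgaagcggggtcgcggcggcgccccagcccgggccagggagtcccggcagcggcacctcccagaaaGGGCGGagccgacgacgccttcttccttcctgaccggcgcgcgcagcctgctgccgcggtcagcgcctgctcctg
SREBF2: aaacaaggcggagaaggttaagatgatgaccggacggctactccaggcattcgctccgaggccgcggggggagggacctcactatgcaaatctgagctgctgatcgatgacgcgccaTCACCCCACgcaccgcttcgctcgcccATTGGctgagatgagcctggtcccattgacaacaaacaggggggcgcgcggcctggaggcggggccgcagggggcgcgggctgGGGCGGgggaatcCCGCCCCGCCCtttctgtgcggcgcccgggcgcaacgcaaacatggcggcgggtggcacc
The INSIG1 window lies at chr7:155297628-155297927 on the plus strand, TM7SF2 at chr11:65111622-65111921 on the plus strand, NPC1 at chr18:23586457-23586756 on the minus strand, and SREBF2 at chr22:41832855-41833154 on the plus strand. The INSIG1 window held 1 CCAAT match, 170 bases before the start, and 6 of GGGCGG. TM7SF2 held 1 CCAAT match, 74 bases before the start, and 4 of GGGCGG. NPC1 held 2 matches of GGGCGG and 0 of CCAAT. In SREBF2 the sterol regulatory element core lay 133 bases before the start and a CCAAT match 106 bases before it.

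Windows were available for 26 of the 28 genes on the array, 35 windows in all because a gene can have several starts. CCAAT was present in 60% of these windows (21 of 35), against 34.6% of all 35116 windows of the same length. GGGCGG was present in 88.6% (31 of 35), against 45.0% of all windows. CACGTG, the E-box, was present in 14.3% (5 of 35), against 7.26%, and the sterol regulatory element core in 2.86% (1 of 35), against 1.13%. Windows of the same gene can overlap, so a site can be counted more than once. The 5 windows with an E-box belonged to 4 genes, and those of SC5D shared the same site. By gene, CCAAT was present in 19 of 26 and GGGCGG in 24 of 26. These are descriptions of letters in a window. The 35116 windows were not limited to genes detected here, so the 2 sets of windows are unlike in that respect. The 3 genes that rose and SREBF2, which did not pass the test, were alike in holding GGGCGG and differed in CCAAT, which NPC1 lacked.

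Among 6 genes of sterol sensing and SREBP regulation, 1 rose, against 3.59% of all genes. Of the 6, 5 had a log2 fold change above 0, against 53.7% of all genes, and the median was 0.30. INSIG1 had normalized log2 levels of 11.26, 11.35 and 11.72 in inhibitor samples, against 9.87, 10.45 and 10.82 in vehicle samples. All 3 inhibitor samples lay above all 3 vehicle samples, and the vehicle samples spread over almost a whole log2 unit. On the untransformed scale the signal was 2160, 3006 and 4123 in inhibitor samples and 730.7, 1140 and 2520 in vehicle samples. The fold was 2.09 (95% confidence interval 1.42 to 3.08), a log2 fold change of 1.06 ± 0.25 (SE, n = 3 each, adjusted p = 0.0435). INSIG1 has a dimmer probe that did not follow. It read 7.52, 6.84 and 6.83 in inhibitor samples and 6.24, 7.26 and 7.44 in vehicle samples, so the groups overlapped. Its log2 fold change was 0.08 ± 0.32 (SE, adjusted p over all probes 0.914), and with the mean of both probes INSIG1 was no longer called (log2 fold change 0.57, adjusted p = 0.220). With adjustment over every kept probe in place of genes, the bright INSIG1 probe missed the threshold too (adjusted p = 0.0501).

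The other sensing genes differed less between the groups. SCAP had levels of 10.68, 10.49 and 10.81 in inhibitor samples, against 10.21, 10.24 and 10.48 in vehicle samples, groups that did not overlap. The log2 fold change of SCAP was 0.35 ± 0.16 (SE, adjusted p = 0.223). INSIG2, the second INSIG protein, had 8.32, 8.33 and 8.67 with the inhibitor, against 8.09, 8.00 and 8.27 with vehicle, a log2 fold change of 0.32 ± 0.17 (SE, adjusted p = 0.285). Neither difference passed the test, although every inhibitor sample was above every vehicle sample in both genes. LPIN1, a phosphatidate phosphatase that also limits nuclear SREBP, had a log2 fold change of 0.28 ± 0.17 (SE, adjusted p = 0.363), with overlapping groups. SREBF1, which encodes SREBP-1, had 6.58, 6.51 and 6.52 in inhibitor samples and 6.38, 6.45 and 6.50 in vehicle samples, with a log2 fold change of 0.09 ± 0.14 (SE, adjusted p = 0.743). SREBF2 was near the detection limit on this array, detected in 1 inhibitor sample and 2 vehicle samples. Its levels were 5.08, 4.85 and 4.70 with the inhibitor and 4.75, 5.34 and 5.03 with vehicle, and the groups overlapped. The log2 fold change was -0.17 ± 0.19 (SE, adjusted p = 0.645), with a 95% interval from -0.60 to 0.27.

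**Figure D1:**
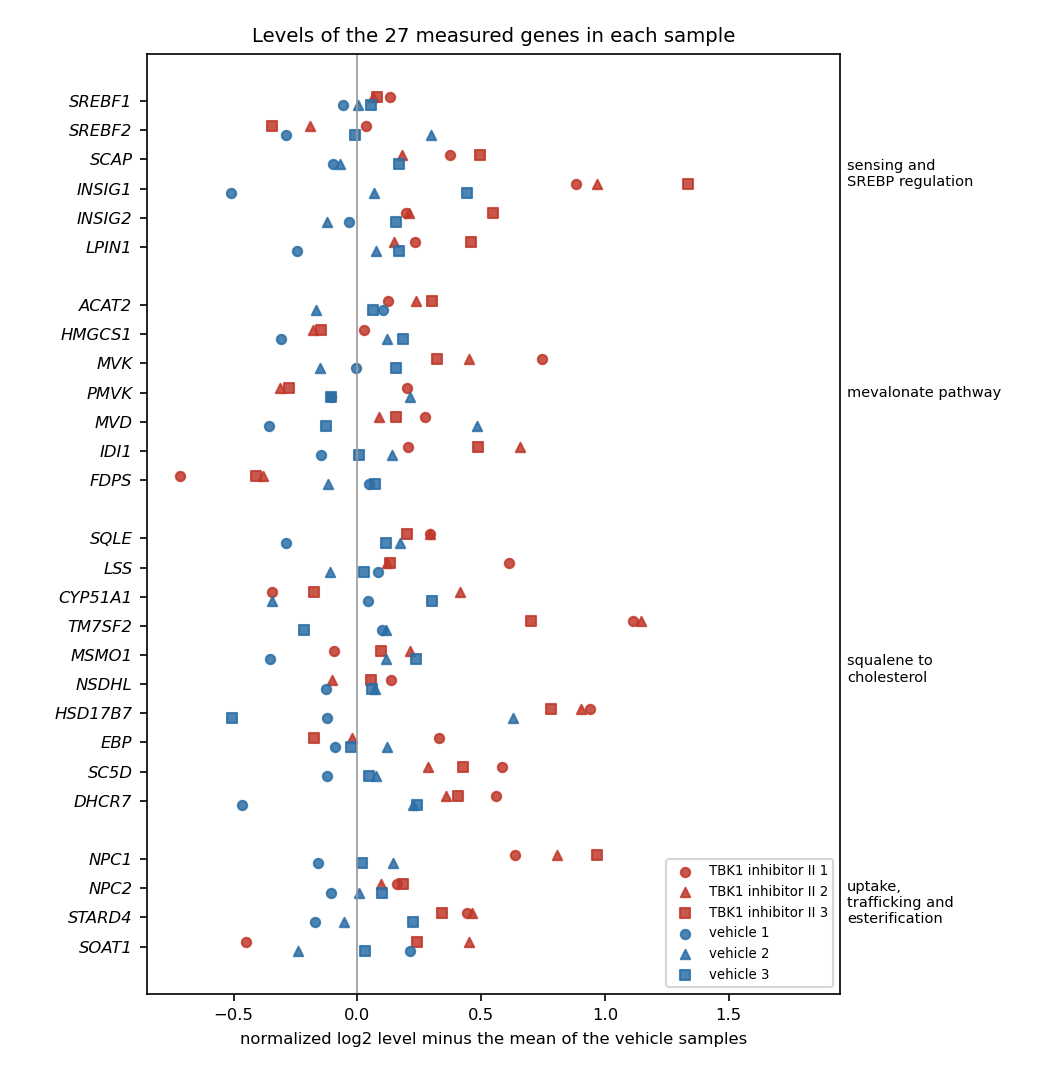
Normalized log2 level of each of the 27 measured genes minus its mean in the vehicle samples (horizontal axis), with genes in rows by step of the pathway. Red symbols are the 3 inhibitor samples, blue symbols the 3 vehicle samples, and shape gives the replicate number. INSIG1, TM7SF2, HSD17B7 and NPC1 have all 3 red symbols to the right of all blue ones, FDPS has them to the left, and the blue circle of vehicle replicate 1 is the leftmost symbol for 15 genes.

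None of the 7 mevalonate pathway genes passed the test in either direction. Of all genes, 3.59% passed as higher and 1.86% as lower. The median log2 fold change of the 7 was 0.17, and 4 of 7 were above 0, against 53.7% of all genes. FDPS, which makes farnesyl diphosphate, the last intermediate shared by sterols and prenyl anchors, was the only one of the 27 genes whose inhibitor samples all lay below its vehicle samples. Its levels were 8.91, 9.25 and 9.22 with the inhibitor, against 9.68, 9.51 and 9.70 with vehicle. The log2 fold change was -0.50 ± 0.16 (SE, adjusted p = 0.102), with a 95% interval from -0.87 to -0.13. IDI1, the isomerase just before it, read 9.73, 10.18 and 10.01 with the inhibitor and 9.38, 9.67 and 9.53 with vehicle. That is a log2 fold change of 0.45 ± 0.17 (SE, adjusted p = 0.159), opposite in sign to FDPS, with groups that did not overlap. MVK, mevalonate kinase, read 6.36, 6.07 and 5.94 with the inhibitor and 5.61, 5.46 and 5.77 with vehicle, and its groups did not overlap. Its log2 fold change was 0.51 ± 0.17 (SE, adjusted p = 0.117). The deposited processed values gave MVK 0.16.

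None of the 4 remaining mevalonate genes passed. ACAT2, the cytosolic thiolase that opens the pathway, read 10.85, 10.96 and 11.03 with the inhibitor and 10.83, 10.56 and 10.79 with vehicle, and its groups did not overlap (log2 fold change 0.22 ± 0.16, SE, adjusted p = 0.424). Its dimmer probe had overlapping groups and a value of the opposite sign, -0.63 ± 0.35 (SE, adjusted p over all probes 0.320). HMGCS1, which joins acetoacetyl-CoA and acetyl-CoA, had 9.64, 9.43 and 9.46 with the inhibitor and 9.30, 9.73 and 9.80 with vehicle. The groups overlapped (log2 fold change -0.10 ± 0.18, SE, adjusted p = 0.780). PMVK, the next kinase, had -0.13 ± 0.19 (SE, adjusted p = 0.725), and MVD, the decarboxylase, had 0.17 ± 0.22 (SE, adjusted p = 0.681). With median centring the log2 fold change of HMGCS1 was 0.12 and that of PMVK 0.14, both under the shift of all genes.

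**Figure D2:**
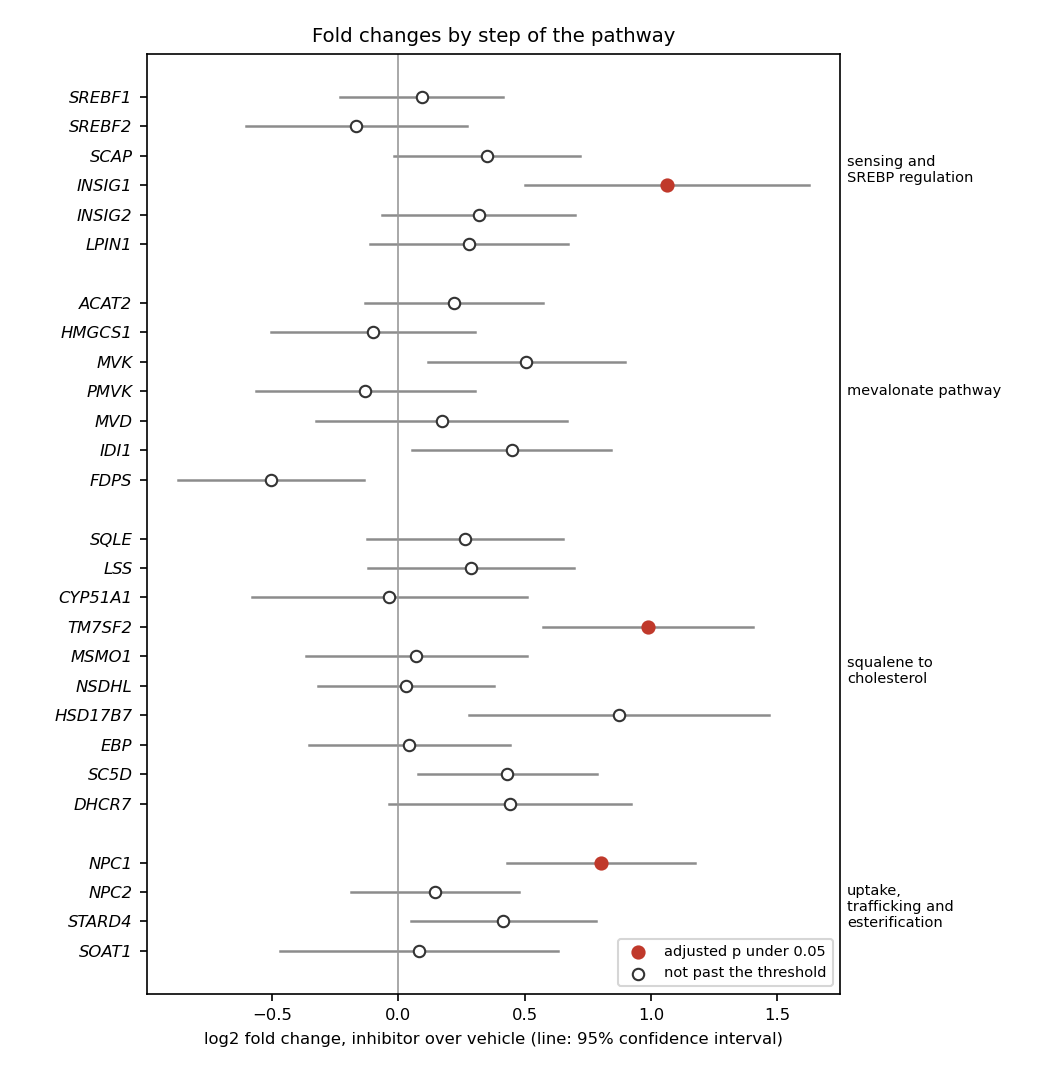
Log2 fold change, inhibitor over vehicle, of the 27 genes in order of the pathway (points), with 95% confidence intervals as lines. INSIG1 at 1.06, TM7SF2 at 0.99 and NPC1 at 0.80 passed the test, HSD17B7 at 0.87 did not, and FDPS at -0.50 is the lowest; STARD4 was not detected in vehicle samples, so its point rests on values at background.

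Of the 11 genes from squalene to cholesterol, 10 were measured. Of these 10, 1 rose, TM7SF2, against 3.59% of all genes, and 9 had a log2 fold change above 0, against 53.7% of all genes. Their median was 0.28. TM7SF2, the delta-14 sterol reductase, had levels of 7.74, 7.77 and 7.32 in inhibitor samples, against 6.72, 6.74 and 6.41 in vehicle samples. The gap between the groups was wider than the range within either of them. Its signal was 273.4, 341.4 and 312.5 in inhibitor samples and 147.4, 158.9 and 214.2 in vehicle samples. The fold was 1.98 (95% confidence interval 1.49 to 2.64), a log2 fold change of 0.99 ± 0.18 (SE, n = 3 each, adjusted p = 0.0288). The log2 fold change was 0.59 after quantile normalization without background correction (adjusted p = 0.00858), and the deposited processed values, whose transformation is not known, gave 0.52 (adjusted p = 0.0133).

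HSD17B7, the 3-keto-sterol reductase of C4 demethylation, had the third largest log2 fold change of the set and did not pass. It read 11.05, 11.01 and 10.89 in inhibitor samples and 9.99, 10.74 and 9.60 in vehicle samples. The groups did not overlap, and the vehicle samples spread widely. The fold was 1.83 (95% confidence interval 1.22 to 2.77), with a log2 fold change of 0.87 ± 0.26 (SE, adjusted p = 0.0854). SC5D, the sterol-C5 desaturase, read 10.13, 9.83 and 9.97 with the inhibitor and 9.43, 9.62 and 9.59 with vehicle. The groups did not overlap (log2 fold change 0.43 ± 0.16, SE, adjusted p = 0.136). DHCR7, which reduces 7-dehydrocholesterol, had 9.16, 8.95 and 9.00 with the inhibitor and 8.13, 8.82 and 8.84 with vehicle. Its 2 probes gave like log2 fold changes of 0.42 and 0.44, of which neither passed, and vehicle replicate 1 alone lay far below the rest.

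SQLE, squalene epoxidase and a rate-limiting step of the later pathway, had 10.76, 10.76 and 10.66 with the inhibitor and 10.17, 10.64 and 10.58 with vehicle. The log2 fold change of SQLE was 0.26 ± 0.17 (SE, adjusted p = 0.389), and its other probe gave 0.32. Here too the vehicle group's low value was replicate 1, and the other two lay close below the inhibitor samples. LSS, which closes the sterol rings, had 0.29 ± 0.18 (SE, adjusted p = 0.367), also without overlap. For the 4 remaining genes the log2 fold changes were near 0 and the groups overlapped. CYP51A1, the lanosterol demethylase, had -0.04 ± 0.24 (SE, adjusted p = 0.945), and 0.21 with median centring. MSMO1 and NSDHL, which act in C4 demethylation with HSD17B7, had 0.07 ± 0.19 and 0.03 ± 0.15 (SE, adjusted p = 0.861 and 0.929). EBP, the sterol isomerase, had 0.04 ± 0.18 (SE, adjusted p = 0.906). The 3 probes of MSMO1 gave log2 fold changes of -0.26 to 0.09.

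**Figure D3:**
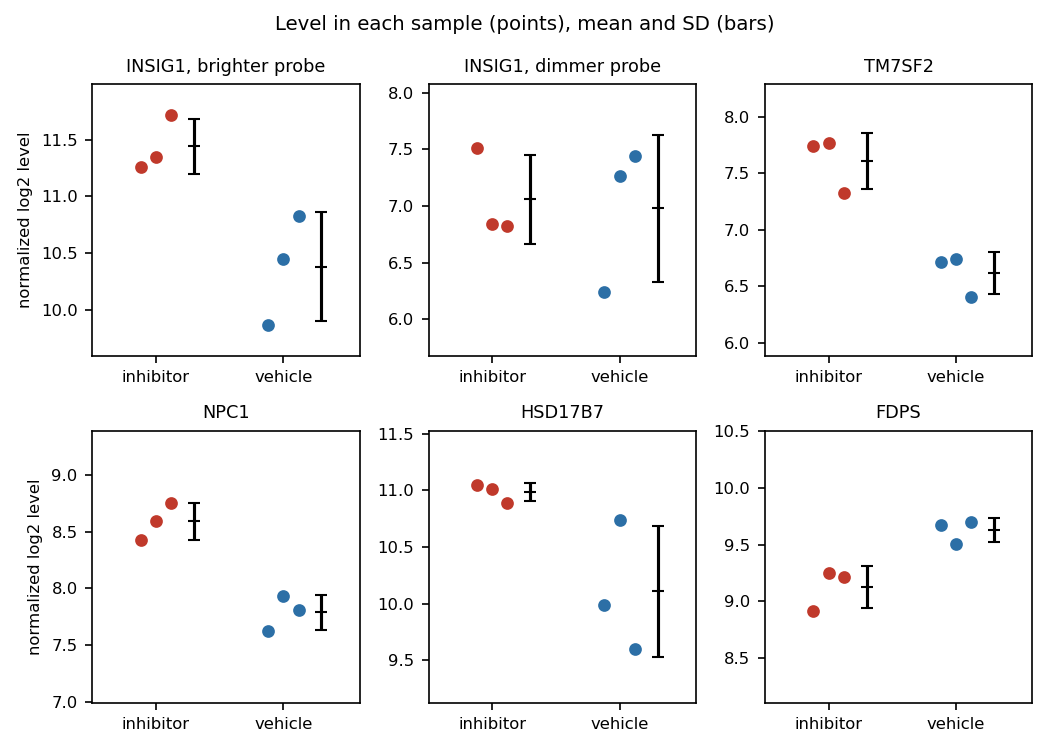
Normalized log2 level (vertical axis) of single genes in each sample, with inhibitor samples left and vehicle samples right, points for samples and bars for the mean and SD of 3 samples. All panels span the same range, and the bright INSIG1 probe differs between groups while the dim INSIG1 probe overlaps.

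Of 4 measured genes of uptake, trafficking and esterification, 1 rose, against 3.59% of all genes. All 4, STARD4 at background in vehicle included, had a log2 fold change above 0, against 53.7% of all genes, with a median of 0.28. NPC1 had levels of 8.42, 8.59 and 8.76 in inhibitor samples, against 7.63, 7.93 and 7.81 in vehicle samples. Again the gap exceeded the range within each group. Its signal was 381.9, 539.4 and 658.7 with the inhibitor and 208.4, 259.9 and 393.9 with vehicle. The fold was 1.74 (95% confidence interval 1.35 to 2.26), a log2 fold change of 0.80 ± 0.17 (SE, n = 3 each, adjusted p = 0.0316), and the deposited processed values gave 0.56. NPC2, the soluble lysosomal protein that hands cholesterol to NPC1, had 11.76, 11.69 and 11.78 in inhibitor samples and 11.49, 11.60 and 11.70 in vehicle samples. Its groups overlapped, and its log2 fold change was 0.15 ± 0.15 (SE, adjusted p = 0.589). STARD4, a cytosolic sterol carrier, was detected in 3 inhibitor samples and 0 vehicle samples, and was thus kept only through the inhibitor group. It read 5.07, 5.09 and 4.97 with the inhibitor and 4.46, 4.58 and 4.85 with vehicle, where it was not well above background. The vehicle level is thus only an upper bound, and no fold is given (means 5.05 and 4.63, adjusted p = 0.160). SOAT1, which esterifies cholesterol for storage, had 5.21, 6.11 and 5.90 with the inhibitor and 5.87, 5.42 and 5.69 with vehicle, without a detectable difference (log2 fold change 0.08 ± 0.24, SE, adjusted p = 0.875).

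Over the whole set, more genes had a positive log2 fold change than passed the test. Of 27 genes, 22 had a log2 fold change above 0 (81.5%, against 53.7% of all genes), and the median was 0.26, against 0.03 for all genes. In 15 genes (55.6%) every inhibitor sample was above every vehicle sample, which held for 18.5% of all genes, and in 1 gene (3.70%), FDPS, every inhibitor sample was below, against 13.0% of all genes. Of the 27, 9 had an unadjusted p under 0.05, 8 of them higher and 1 lower, which is 33.3% against 24.4% of all genes. STARD4 is among the 22, the 15 and the 8, and it was kept only because it was detected in the inhibitor group. Over genes detected in at least 1 sample of each group, a limit added after seeing the data, 21 of 26 were above 0 (80.8%, against 53.3% of all such genes). In 14 of the 26 all inhibitor samples lay above all vehicle samples (53.8%, against 17.7%). At an unadjusted p under 0.05, 7 of the 26 were higher, against 1594 of 11423 such genes. In either direction it was 8 of the 26 (30.8%, against 23.6%). The genes were listed with results known and share libraries, so these counts describe the set, were not tested and support nothing about it.

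**Figure D4:**
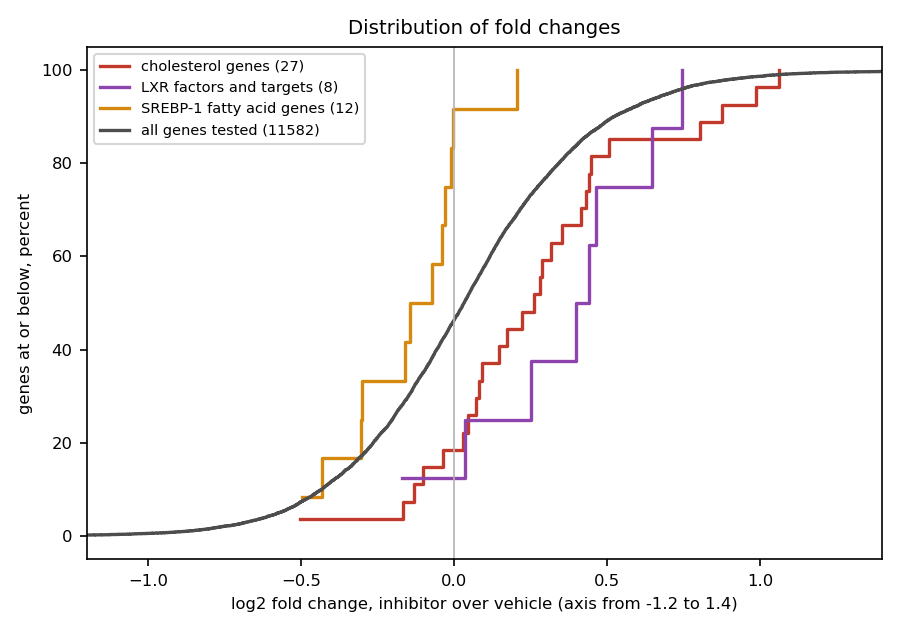
Share of genes (vertical axis, percent) with a log2 fold change, inhibitor over vehicle, at or below the value on the horizontal axis, for the 27 cholesterol genes, the LXR and SREBP-1 fatty acid lists and all 11582 genes tested. Over most of its range the curve of the 27 genes lies to the right of that of all genes, with medians of 0.26 and 0.03, and the SREBP-1 fatty acid genes lie to the left, with a median of -0.11.

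One vehicle library stood low for these genes, and the counts were also read without it. Its part in the results was not tested. Vehicle replicate 1 was the lowest of the 3 vehicle samples for 18 of 27 genes (66.7%, against 40.6% of all genes) and the lowest of all 6 samples for 15 (27.4% of all genes). It also had the fewest detected probes, 18325. Counted against the vehicle mean, 23, 21 and 21 of the 27 genes were higher in inhibitor replicates 1, 2 and 3, and 6, 18 and 21 in vehicle replicates 1, 2 and 3. Without vehicle replicate 1, 18 of 27 genes had a log2 fold change above 0 (66.7%, against 52.3% of all genes). Groups were without overlap and higher with the inhibitor in 15 genes (55.6%, against 23.5%). Leaving out a sample cannot lower that last count, so it does not measure the part of this library. TM7SF2 was then the only one of the 27 that passed. Over all genes 219 then passed as higher, against 416 with all 6 samples. Without any 1 of the 3 inhibitor replicates, 0 of the 27 genes passed, where 4 to 26 of all genes passed as higher. Without vehicle replicate 2, HSD17B7, NPC1 and TM7SF2 passed, among 312 higher genes in all. Without vehicle replicate 3, INSIG1 alone of the 27 passed, among 160 higher genes in all. Log2 fold changes of the 3 called genes ran from 0.72 to 1.29 over these 6 fits.

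**Figure D5:**
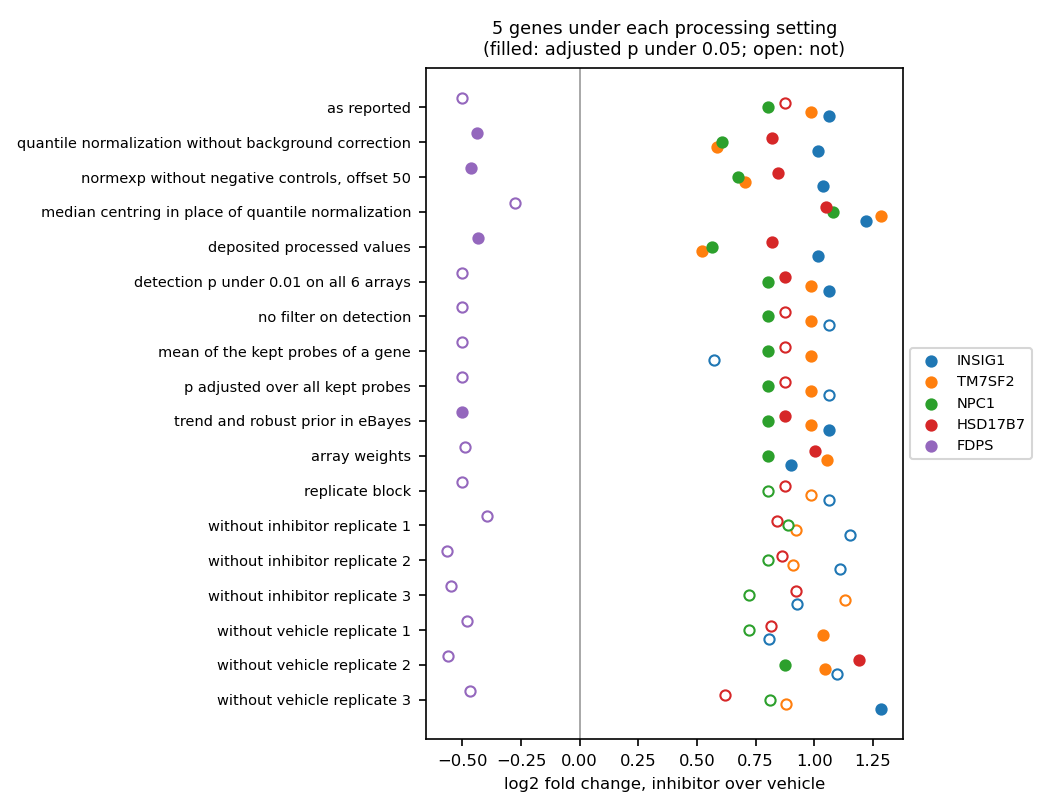
Log2 fold change, inhibitor over vehicle (horizontal axis), of INSIG1, TM7SF2, NPC1, HSD17B7 and FDPS under each processing setting and with each replicate left out (rows), filled where the adjusted p was under 0.05. INSIG1 runs from 0.57 to 1.29, TM7SF2 from 0.52 to 1.28, NPC1 from 0.56 to 1.08 and HSD17B7 from 0.62 to 1.19, while FDPS stays between -0.56 and -0.27.

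Other genes around the pathway were read from 5 companion lists, in which 1 of 59 measured genes rose (1.69%, against 3.59% of all genes) and 0 fell (1.86% of all genes). In these lists 52.5% of genes had a log2 fold change above 0, against 53.7% of all genes. In the SREBP-1 fatty acid list most values were below 0, several of them only slightly. Of 12 measured genes 1 had a log2 fold change above 0 (8.33%, against 53.7% of all genes). The median was -0.11, and none passed in either direction. ME1, malic enzyme, a source of NADPH, had 8.89, 9.16 and 9.01 with the inhibitor and 9.60, 9.52 and 9.43 with vehicle, a log2 fold change of -0.50 ± 0.15 (SE, adjusted p = 0.0904). ELOVL6, a fatty acid elongase, had -0.43 ± 0.18 (SE, adjusted p = 0.188), and FASN, fatty acid synthase, -0.31 ± 0.15 (SE, adjusted p = 0.256). SCD and ACACA of the same list had -0.01 ± 0.16 and -0.04 ± 0.15 (SE, adjusted p = 0.975 and 0.904). In 4 of the 12 (33.3%) the inhibitor samples all lay below the vehicle samples, against 13.0% of all genes.

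LXR receptors sense oxysterols and switch on cholesterol export genes. Of 8 measured LXR factors and targets 1 rose, against 3.59% of all genes. A log2 fold change above 0 was found for 7 of 8 (87.5%, against 53.7% of all genes), and the median was 0.42, against 0.03. SMPDL3A, a phosphodiesterase induced by LXR, read 8.23, 8.00 and 8.11 in inhibitor samples, against 7.19, 7.24 and 7.68 in vehicle samples (log2 fold change 0.75 ± 0.18, SE, adjusted p = 0.0476). This call was lost under 10 of 17 alternatives, where the adjusted p was up to 0.165: no detection filter, the mean of probes, adjustment over probes, array weights, the replicate block, and leaving out any inhibitor replicate or vehicle replicate 1 or 2. The exporter ABCG1 had 0.65 ± 0.22 (SE, adjusted p = 0.118) and MYLIP, a ligase that degrades lipoprotein receptors, 0.44 ± 0.22 (SE, adjusted p = 0.248). ABCG1, MYLIP, FASN, SCD and ACACA were named after their values were seen.

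In intracellular sterol transport 0 of 15 measured genes passed, where 3.59% of all genes passed as higher and 1.86% as lower. In lists this small 0 calls is near those shares, also in the lists that follow. A log2 fold change above 0 was found for 12 of the 15 (80%, against 53.7% of all genes), and the median was 0.18, against 0.03. STARD3, a late endosomal cholesterol transporter encoded in the ERBB2 amplicon, had 7.87, 7.61 and 7.34 with the inhibitor and 6.51, 7.32 and 6.76 with vehicle. Its log2 fold change was 0.74 ± 0.23 (SE, adjusted p = 0.0951), and OSBPL6, an oxysterol-binding protein relative, had 0.46 ± 0.15 (SE, adjusted p = 0.101). In SREBP processing and turnover 0 of 12 passed, 6 were above 0 (50%, against 53.7% of all genes) and the median was -0.05. MBTPS2, the protease that frees SREBP from the membrane, had 8.68, 8.69 and 8.84 with the inhibitor and 9.18, 9.20 and 9.28 with vehicle. Its log2 fold change was -0.49 ± 0.15 (SE, adjusted p = 0.0859), and ERLIN2, which works in sterol-driven protein turnover, had -0.54 ± 0.15 (SE, adjusted p = 0.0744). Both had groups that did not overlap, on the lower side, as 2 of the 12 did (16.7%, against 13.0% of all genes). ERLIN2 had 3 kept probes and MBTPS2 had 2, of which only the brightest is given here. In the isoprenoid branch 0 of 12 passed and the median was -0.02. PDSS1, which builds the ubiquinone tail, had -0.71 ± 0.20 (SE, adjusted p = 0.0683), and TRIT1, which adds an isopentenyl group to tRNA, 0.48 ± 0.16 (SE, adjusted p = 0.113).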

How the data were processed

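Illumina HumanHT-12 V4.0 arrays measured RNA of 6 samples, 3 per group, grouped by their labels. The deposited table holds, per the file headers, a signal intensity and a detection p-value per probe, without normalization between arrays. The deposited processed table is on a log2-like scale, with its transformation not given in these sources. It was read as log2 and used as an alternative.

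The function neqc of limma 3.58.1 (R 4.3.3) corrected background from the detection p-values, added an offset of 16, quantile normalized and took log2. Correction widens fold changes of dim probes. Kept were 19958 probes whose detection p was under 0.05 on 3 or more arrays. Symbols came from the platform annotation and were updated by gene ID through RefSeq GRCh38.p14. The probe with the highest mean stood for a gene. Groups were compared with lmFit and eBayes over all 11582 genes, without covariates, Benjamini-Hochberg threshold 0.05. Other probes of a gene were adjusted over all kept probes. The number of arrays limits precision. The fit was tested on simulated data.

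Promoter windows came from RefSeq. The genes and companion lists were chosen with earlier results of these data known. Named were all pathway genes and, per companion list, those past the threshold or the 2 with the smallest p. Some genes of the pathway are not reported here.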

Additional observations from a re-analysis of the deposited data

How the results depend on the processing

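Counts of calls and fold changes both depended on the processing. Over all genes, 823 were higher and 544 lower by quantile normalization without background correction, 767 and 490 by normexp with an offset of 50, 675 and 36 by median centring, 816 and 539 in the deposited processed values, 762 and 478 with a trend and robust prior, and 613 and 357 with array weights, while a detection p under 0.01 on all 6 arrays gave 388 lower. The cholesterol genes called higher numbered 5 without background correction and in the processed values, and 2 to 4 under the other settings of normalization, filter, probe and variance. The 5 were the 3 called genes with HSD17B7 and SC5D. FDPS was the 1 gene called lower without background correction, by normexp with an offset of 50, in the processed values and with the trend and robust prior. The companion lists together had 5 higher without background correction and in the processed values, 3 by normexp with an offset of 50 and with the trend prior, 2 by median centring, and 0 with no filter, the mean of probes, adjustment over probes or array weights. They had 4 lower without background correction, by normexp with an offset of 50, in the processed values and under the strict detection filter, 3 with the trend prior, 2 with no filter, and 1 with the mean of probes or array weights.

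Same-numbered samples did not deviate together (r = -0.14, 0.02 and 0.12), and differently numbered ones gave r from -0.21 to 0.17. With 3 arrays per group these values cannot show whether the numbers pair the samples, which stays unknown. With a replicate block, 28 genes were higher and 12 lower, 0 cholesterol genes and 0 companion genes were called. Leaving out 1 replicate at a time gave 4 to 312 genes higher and 0 to 127 lower, 0 to 3 cholesterol genes and 0 to 1 companion genes higher. That fewer samples enter each of these fits is part of their construction.

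Signs turned only for genes that were not called. These were ACAT2 at -0.21 and MSMO1 at -0.031 with the mean of probes, HMGCS1 at 0.12, PMVK at 0.14 and CYP51A1 at 0.21 by median centring, and MSMO1 at -0.0062 and NSDHL at -0.020 with array weights. Leaving out replicates, log2 fold changes ran from -0.26 to 0.12 for CYP51A1, -0.10 to 0.15 for EBP, -0.11 to 0.19 for MSMO1, -0.0067 to 0.41 for MVD, -0.034 to 0.10 for NSDHL and -0.10 to 0.35 for SOAT1. The median of the mevalonate genes, 0.17, was -0.0067 to 0.21 with replicates left out, -0.10 with the mean of probes and 0.39 by median centring. For the 27 genes the yardstick was the within-group SD of their median level per array, not a spread of fold changes. Their median log2 fold change moved by more than this SD only by median centring, to 0.44. The cause was not tested. Signal near background limits SREBF2 and STARD4.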
